A study of Mus musculus with 96 samples.

Results

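Of the 56748 genes in the gene count table, 38 are reported here. They are the protein-coding genes whose symbol starts with H2-, the major histocompatibility complex (MHC) of the mouse. By symbol they were grouped as 2 classical class I genes (class Ia: H2-K1 and H2-D1), 25 non-classical class I genes (class Ib), 5 class II genes, 5 class II accessory genes and 1 gene outside antigen presentation (H2-Ke6). Another 7 genes with such a symbol are pseudogenes and were not taken. The 38 genes lie on chromosome 17 between base 34214991, the start of H2-K1, and base 37794443, the end of H2-M2 (GRCm39).

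Class I heavy chains pair with beta-2-microglobulin, encoded by B2m outside this complex, and present peptides from inside the cell to CD8 T cells on most nucleated cells. Class II chains present peptides from taken-up material to CD4 T cells and are made mostly by B cells, dendritic cells and macrophages. Class I genes respond to interferons and to the transactivator NLRC5, class II genes to the transactivator CIITA.

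RNA sequencing was done on liver, skeletal muscle and cerebral cortex of 32 mice fed ad libitum (AL) or kept on intermittent fasting (IF). Mice 1-16 were labelled male: mice 1-8 AL and mice 9-16 IF. Per the study's methods these were C57BL/6 mice put on the diets at 6 weeks of age for 4 months, then killed in the morning and perfused. Mice 9-16 had no food for 16 h of each day and were killed at the end of a fast, and mice 1-8 always had food. Mice 25-40 were labelled female: mice 25-32 AL and mice 33-40 IF. Strain, age, hours without food and months of diet were not given for them. AL and IF animals were different mice, which makes 12 groups of 8 libraries. Library numbers give each mouse all 3 tissues, while the titles hold only a replicate number per group. The cortex library of AL mouse 1, described below, went against that link. Because sex and mouse set go together, the sets were kept apart. No treatment other than diet and no time course was included.

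The library labelled cortex of AL mouse 1 went against its label. In it Xist stood at 213 CPM (counts scaled to the library total) and Ddx3y, Eif2s3y, Kdm5d and Uty at 0, whereas Xist reached at most 0.612 CPM in the other 47 libraries of mice 1-16 and Ddx3y at least 25.1. All 48 libraries of mice 25-40 had Xist at 36.8 CPM or more and Ddx3y at 0.0497 or less. This cortex library was omitted, which left 95 libraries and 7 in its group, and calls that it moved in cortex comparisons are also given with it. Tissue labels went with marker sums: hepatocyte markers reached at least 42669 CPM in every liver library, muscle fibre markers at least 107274 in every muscle library and neuron markers at least 4923 in every cortex library. The hepatocyte sum, nearly all Ttr, was also high in some cortex libraries: 3103 CPM in AL mouse 4, 3367 and 1553 in IF mice 11 and 14, 1544 and 4270.0 in IF mice 34 and 36 and 564 in AL mouse 2, where the other cortices had at most 119. Of these, IF mice 11, 34 and 36 had class II sums of 12.3, 17.4 and 24.7 CPM, mouse 11 the highest of its group and mice 34 and 36 the highest of theirs. AL mice 2 and 4 and IF mouse 14 had 5.82, 10.7 and 7.47 CPM and were not the highest of their groups. The link between the sums was not tested.

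Not every member had enough reads to test. Of the 38 members, 28 were tested in 1 or more of 20 comparisons, 17 in all 6 comparisons of IF with AL, and 10 in none. Those 10 were H2-Ea, H2-T3, H2-M1, H2-M11 and the 6 H2-M10 genes. H2-Ea, which encodes the I-E alpha chain and whose promoter is deleted in the C57BL/6 haplotype, reached at most 0.232 CPM in any library. H2-M10.1 and H2-M10.5, known from vomeronasal neurons, had 0 reads in all 95 libraries. H2-M9, another gene known from that organ, was counted almost only in muscle and reached 0.404 CPM.

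Class Ia genes led in most tissues. On a per-kilobase scale, H2-K1 (ENSMUSG00000061232, chr17:34214991-34219321) averaged 430.4 CPM per kb in fed liver of mice 1-16, 38.9 in fed muscle and 15.5 in fed cortex. H2-D1 (ENSMUSG00000073411, chr17:35481706-35486475) averaged 159, 46.0 and 23.5 CPM per kb in the same groups. Muscle and cortex had H2-D1 as their highest member, and liver of mice 1-16 had H2-Q10, a class Ib gene for a heavy chain secreted by hepatocytes. Fed liver of mice 25-40 had H2-K1 first at 594 CPM per kb and H2-Q10 next at 509. With mouse as a block, H2-K1 was higher in fed liver than in fed muscle by 3.25 on the log2 scale in mice 1-16 (SE 0.12, adjusted p 7.62e-23) and by 3.35 in mice 25-40 (SE 0.14, adjusted p 1.25e-21). H2-D1 was higher in liver than in muscle by 1.55 (SE 0.13, adjusted p 2.10e-13) and 1.81 (SE 0.11, adjusted p 1.43e-16).

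Among class Ib genes, H2-Q10 was high in liver and close to 0 in cortex. H2-Q10 (ENSMUSG00000067235, chr17:35780986-35785460) averaged 619.9 CPM per kb in fed liver of mice 1-16, 0.291 in fed muscle and 0.0115 in fed cortex. With fed cortex at means of 0.0502 CPM in mice 1-16 and 0.0329 in mice 25-40, no fold of liver over cortex is given. H2-Q10 was tested there because of its reads in the other tissues, so its direction was no separate test. H2-T23, whose product Qa-1 is a ligand of CD94/NKG2 receptors, averaged 53.4 CPM per kb in fed liver of mice 1-16, 4.14 in fed muscle and 11.2 in fed cortex. H2-T22, a ligand of some gamma delta T cell receptors, averaged 20.7, 6.11 and 8.18. H2-M5 averaged 2.06 CPM in fed cortex of mice 1-16 and 0.175 in fed liver, where 1 read equalled 0.0201 to 0.0383 CPM. Its log2 difference of liver over cortex there was -2.96 (SE 0.70, adjusted p 0.000292), resting on few liver reads. In mice 25-40 it averaged 2.19 CPM in fed cortex and 0.159 in fed liver, and no fold is given. H2-M5 had too few reads to test between diets in liver of mice 25-40. It was compared there because of its cortex reads, so its direction was no separate test.

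Class II genes stood close together in liver and muscle and low in cortex. H2-Aa (ENSMUSG00000036594, chr17:34501718-34506797), for the I-A alpha chain, averaged 6.99 CPM per kb in fed liver of mice 1-16 and 8.79 in fed muscle. Liver and muscle were not called different for H2-Aa (log2 -0.54, adjusted p 0.0989), H2-Ab1 (-0.44, adjusted p 0.155) or H2-Eb1 (-0.63, adjusted p 0.0621) in mice 1-16. Without the liver library of IF mouse 16, H2-Aa and H2-Eb1 were called in that fit. The same 3 genes were not called in mice 25-40 either (0.30, 0.25 and 0.29). Liver over cortex, H2-Aa was higher by 4.28 (SE 0.37, adjusted p 1.70e-12) in mice 1-16. Opposite to these, H2-DMa (ENSMUSG00000037649), for a chain of the DM dimer that removes the CLIP peptide from class II, was higher in fed cortex of mice 1-16 than in liver (liver over cortex -1.58, SE 0.25, adjusted p 1.00e-06) and than in muscle (muscle over cortex -1.22, SE 0.25, adjusted p 5.12e-05). H2-DMa overlaps other genes, given below with the shared sequence, and their part in its counts was not tested.

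Counted over all members tested in fed mice 1-16, 17 of 27 were higher and 0 lower in liver than in muscle (34.9 and 35.6 percent of 24688 genes), 20 higher and 2 lower in liver than in cortex (33.4 and 43.8 percent), and 14 higher and 6 lower in muscle than in cortex (30.9 and 42.3 percent). With the omitted cortex library these numbers called in total were the same. Mice 25-40 gave 17 and 1 of 28 (35.1 and 38.9 percent of 23371 genes), 24 and 2 (34 and 46.4 percent), and 19 and 4 (32.5 and 43.4 percent). The member lower in liver than in muscle there was H2-M9, which had 0 reads in fed liver and at most 0.310 CPM in fed muscle, so no fold is given. Some members in these counts were tested only because of reads in other tissues, so their direction was no separate test. In fed muscle of mice 1-16, H2-Q2 and H2-Bl averaged 0 CPM and H2-Q1 0.0093. In fed cortex of these mice H2-Q10 averaged 0.0502 CPM.

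**Figure D1:**
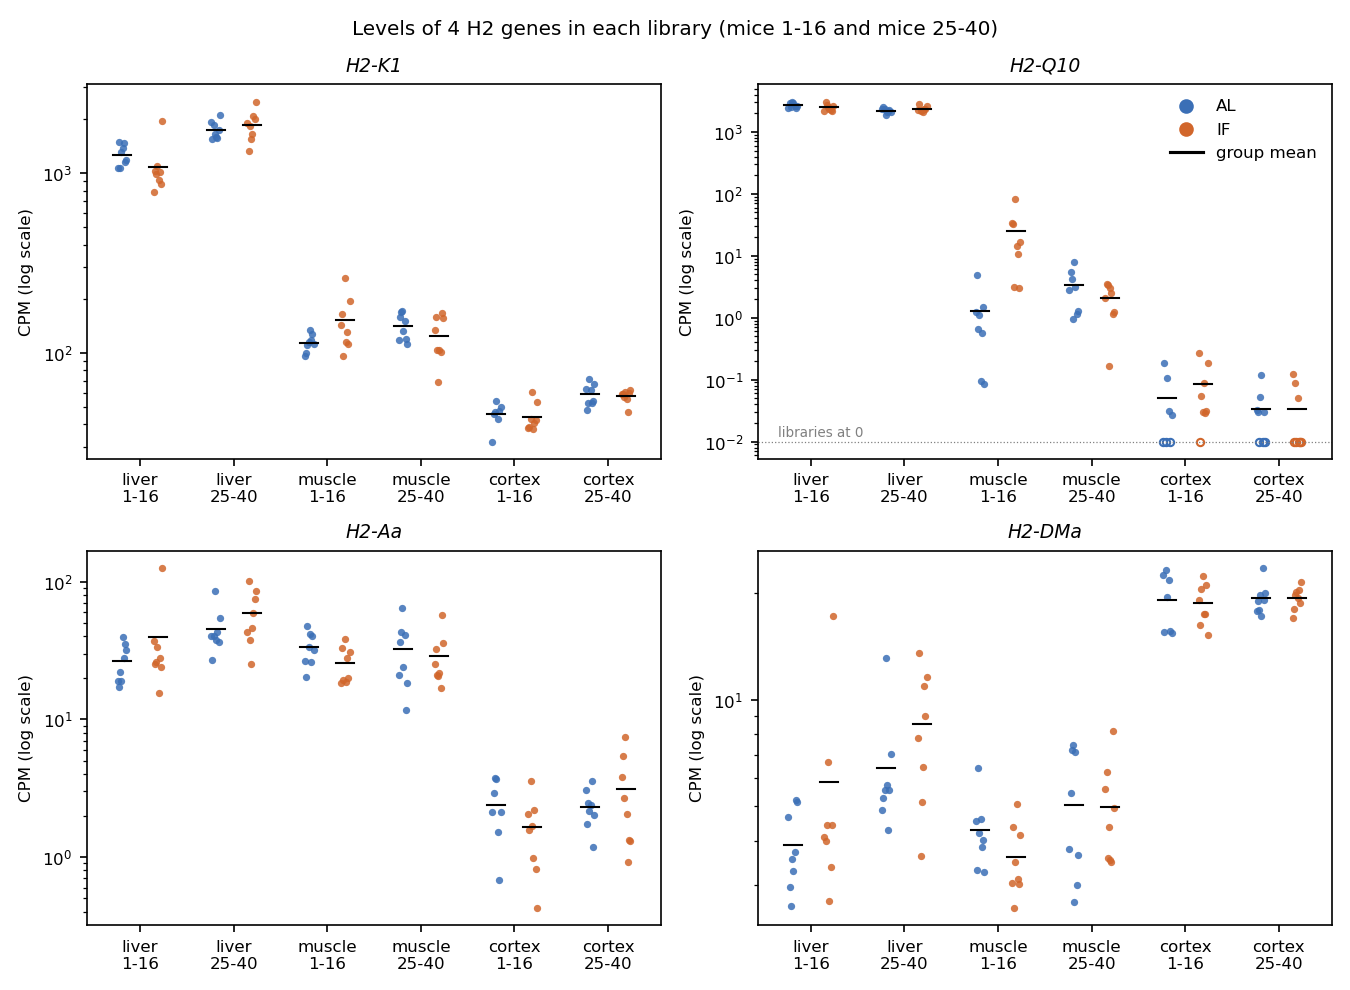
CPM of H2-K1, H2-Q10, H2-Aa and H2-DMa in each library by tissue, set and diet, on a log axis with open points for libraries at 0. Medians of H2-Q10 in muscle of mice 1-16 were 0.885 CPM under AL and 15.5 under IF.

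Liver of mice 1-16 had 2 members higher and 1 lower under IF among 25 tested, where 23.5 and 21.1 percent of 16204 genes were called. The median log2 fold change was 0.27 over the members and 0.06 over all genes tested. Without IF mouse 16 the median over the members was at most 0.02, the value of H2-DMa there. H2-Ob was then at 0.01. H2-K1, H2-D1, H2-Aa, H2-Eb1, H2-Q1, H2-Q4, H2-Q7, H2-Q10, H2-T10, H2-T22 and H2-T23 lay below 0. In muscle of mice 1-16, 1 member was higher and 1 lower among 20 tested, against 11.5 and 11.6 percent of 15025 genes, with medians of -0.07 and 0.01. In cortex of mice 1-16, edgeR called 0 of 21 members, where 3.79 percent of 18462 genes were higher and 3.43 percent lower. At unadjusted p under 0.05 it called 1 member (23.8 percent of genes), and DESeq2 called 0 of 22 (11.6 percent), and with the omitted cortex library edgeR again called 0. Members had a median log2 fold change of 0.10 in cortex.

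**Figure D2:**
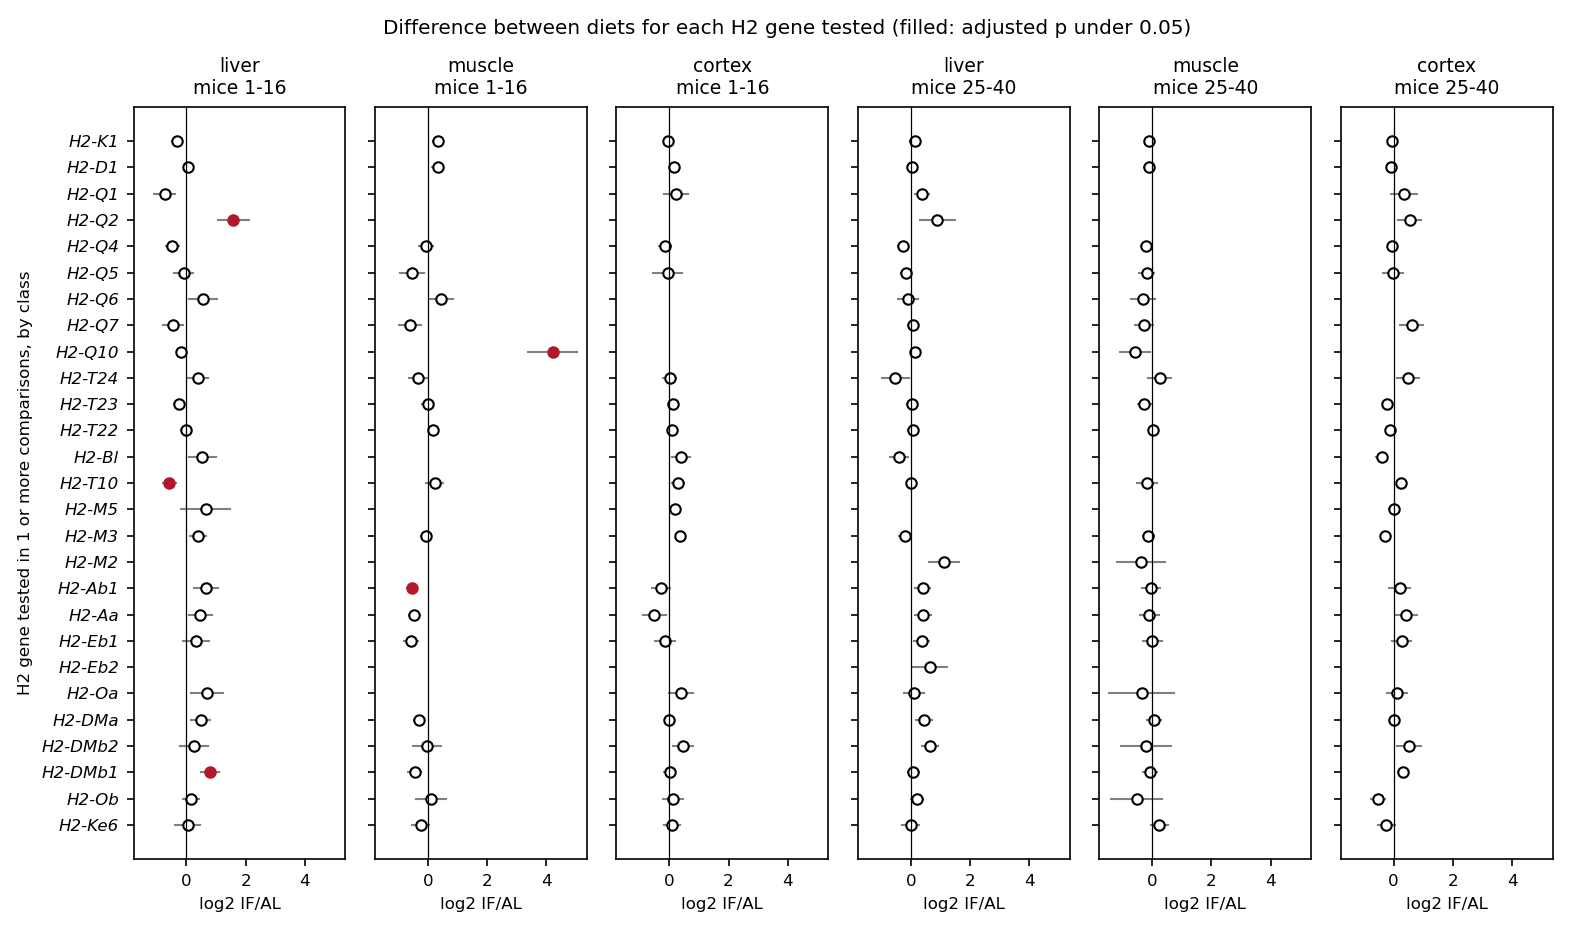
Log2 fold change of IF over AL with its standard error for every member tested, by tissue and mouse set, filled red where adjusted p is under 0.05. H2-Q10 in muscle of mice 1-16 lies at 4.21.

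Among the class Ia genes, H2-K1 in liver of mice 1-16 ranged from 1062 CPM (median 1249) to 1495 under AL and from 787 (median 997) to 1949 under IF. Of 8 IF livers, 6 lay below the lowest AL liver and 1, mouse 16, above the highest, and the ranges overlapped. The log2 fold change was -0.32 (SE 0.15, adjusted p 0.0995), called with a replicate block (-0.37, adjusted p 0.0326), and without IF mouse 16 it was -0.49 (SE 0.12, adjusted p 0.00177), which was called. H2-D1 in the same livers spanned 328 to 526 CPM (median 393) under AL and 339 to 837 (median 396) under IF, with overlap and equal numbers of IF mice above and below the AL median (0.06, adjusted p 0.788; -0.13 without mouse 16). In muscle both genes had higher medians under IF, 114 and 137 CPM for H2-K1 and 116 and 137 for H2-D1, with overlap, and neither was called (0.34, adjusted p 0.140; 0.33, adjusted p 0.212). Without muscle IF mouse 12 they were at 0.19 and 0.15. With the omitted cortex library H2-K1 was at -0.11 and H2-D1 at 0.07 in cortex. In cortex without it the medians of H2-K1 were 47.0 and 41.6 CPM and those of H2-D1 61.2 and 65.8, with overlap and no call (-0.03, adjusted p 0.916; 0.15, adjusted p 0.215).

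Liver of mice 1-16 had 14 class Ib genes tested, 1 called higher and 1 lower under IF, beside 23.5 and 21.1 percent of all genes. H2-T10 (ENSMUSG00000079491), like H2-T22 a ligand of some gamma delta T cell receptors, ranged from 6.10 CPM (median 8.44) to 11.8 under AL and from 2.88 (median 5.69) to 14.1 under IF. IF mouse 16 was above every AL mouse and 6 IF mice were below every AL mouse. H2-T10 fell by 0.57 on the log2 scale (SE 0.23, adjusted p 0.0422), with 7 of 8 IF mice below the AL median. That call was lost when any single library of AL mice 2, 5, 6, 7 or 8 or IF mice 9, 10, 11, 12, 14 or 15 was left out, with adjusted p from 0.000288 to 0.0859 over all 16. H2-Q2 (ENSMUSG00000091705) ranged from 0.0223 CPM (median 0.383) to 1.01 under AL and from 0.294 (median 1.25) to 2.96 under IF, with 6 of 8 IF mice above the highest AL mouse. It rose by 1.58 (SE 0.53, adjusted p 0.0179), and without IF mouse 16 by 1.27 with adjusted p 0.0625, not called. With a replicate block it was not called either (adjusted p 0.0523).

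Leaving out liver IF mouse 16 changed the class Ib calls in liver. H2-Q4 (ENSMUSG00000035929, chr17:35598593-35604266) had a median of 101 CPM (72.7 to 162) under AL and 69.5 (42.7 to 168) under IF, with overlap and 7 of 8 IF mice below the AL median. Its log2 fold change was -0.48 (SE 0.22, adjusted p 0.0841) with all mice and -0.74 (SE 0.15, adjusted p 0.000277) without mouse 16. DESeq2 (adjusted p 0.0336) and a replicate block (adjusted p 0.00208) called H2-Q4 with all mice. Without that mouse, H2-T23 (-0.45, adjusted p 0.00300), H2-Q7 of the Qa-2 antigens (-0.90, adjusted p 0.00158) and H2-Q1 (-1.17, adjusted p 0.000807) were also called. With all mice these were -0.26 (adjusted p 0.190), -0.47 (adjusted p 0.283) and -0.74 (adjusted p 0.103), and a replicate block called H2-Q1 (adjusted p 0.0306). H2-T10 stood at -0.86 (SE 0.17, adjusted p 0.000288) without mouse 16. H2-T22 was at -0.02 (adjusted p 0.935) with all mice and at -0.20 without it, not called.

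**Figure D3:**
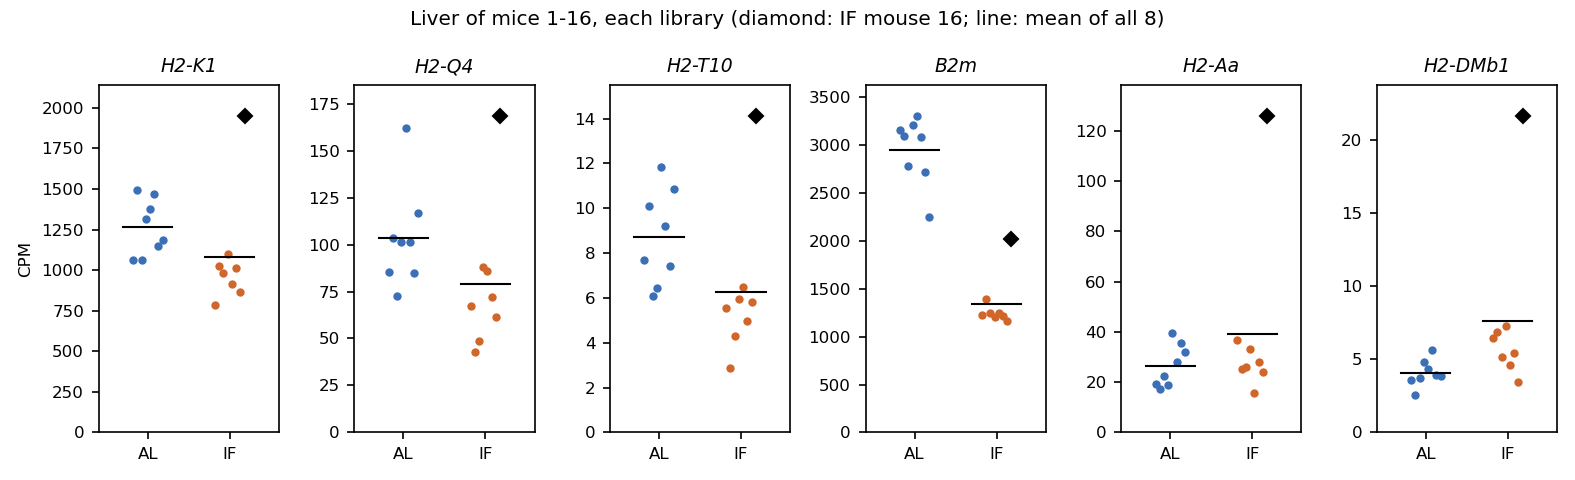
CPM in each liver library of mice 1-16 for H2-K1, H2-Q4, H2-T10, B2m, H2-Aa and H2-DMb1, with IF mouse 16 drawn as a diamond. H2-K1 stood at 1949 CPM in that library and at 787 to 1102 in the other 7 IF livers.

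H2-Q10 behaved differently in liver and muscle. In liver of mice 1-16 it ranged from 2419 CPM (median 2619.7) to 3005 under AL and from 2149 (median 2437) to 3096 under IF, with overlap and no call (log2 -0.20, SE 0.11, adjusted p 0.152). Without IF mouse 10 it was called there (-0.27, adjusted p 0.0314). In muscle it ranged from 0.0853 CPM (median 0.885) to 4.88 under AL and from 2.98 (median 15.5) to 83.5 under IF. All 8 IF muscles were above the AL median and 6 above the highest AL muscle, AL mouse 2, so the ranges overlapped only at that mouse and at IF mice 11 and 15. H2-Q10 rose in muscle by 4.21 on the log2 scale (SE 0.83, adjusted p 0.00229). The call held with each of 16 libraries left out in turn (3.64 to 5.01, adjusted p 0.00122 to 0.00598), the smallest value being that without IF mouse 12.

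Hepatocyte RNA in the muscle samples was looked at with 5 markers (Alb, Apoa1, Serpina3k, Tat, Ttr). Their summed level in muscle of mice 1-16 was 0.221 to 1.82 CPM (median 0.380) under AL and 0.177 to 3.29 (median 1.36) under IF, with Alb the most abundant and Tat at 0 in 7 of 8 libraries of each diet. Alb was the only 1 of the 5 with enough reads to test and was not called (log2 1.40, adjusted p 0.0636). H2-Q10 per unit of Alb had a median of 0.0817 in AL liver and 0.0798 in IF liver, 2.46 (0.231 to 11.1) in AL muscle and 19.4 (3.26 to 87.4) in IF muscle. In mice 25-40 that ratio in muscle had a median of 23.8 (1.77 to 60.5) under AL and 8.06 (0.370 to 28.5) under IF. Alb was as low as 0.0853 CPM in muscle of mice 1-16 and 0.0476 in muscle of mice 25-40. Ratios of such libraries rest on few reads. Where in the muscle samples the H2-Q10 reads came from was not tested.

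**Figure D4:**
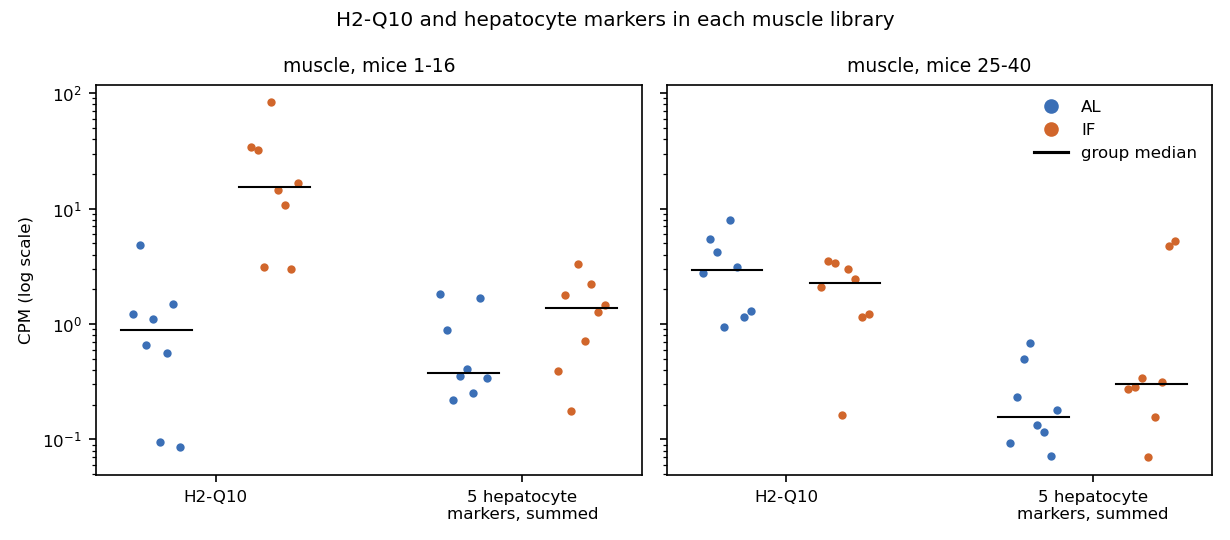
CPM of H2-Q10 and the sum of 5 hepatocyte markers in each muscle library, on a log axis with a line at the median. H2-Q10 reached 83.5 CPM and the marker sum 3.29 in IF mouse 12.

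The other 9 class Ib genes tested in muscle of mice 1-16 were not called, where 11.5 percent of all genes were higher and 11.6 percent lower. Neither were the 10 tested in cortex, where 3.79 and 3.43 percent of all genes were called. H2-M3, which presents N-formylated peptides, had the only unadjusted p under 0.05 in cortex. It ranged from 2.36 CPM (median 2.88) to 3.95 under AL and from 2.90 (median 3.85) to 5.24 under IF, with overlap and all 8 IF cortices above the AL median (log2 0.37, SE 0.15, unadjusted p 0.0210, adjusted p 0.128). With the omitted cortex library H2-M3 stood at 0.26 (adjusted p 0.365). In muscle, H2-Q7 was at -0.59 (adjusted p 0.280) with all mice and at -1.0 (adjusted p 0.0326) without IF mouse 12.

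Of 3 class II genes tested in each tissue of mice 1-16, 1 was called lower under IF in muscle (11.5 percent of all genes were higher and 11.6 lower) and 0 in liver (23.5 and 21.1 percent) or cortex (3.79 and 3.43 percent), and their diet effects were not called different between liver and muscle. H2-Ab1 (ENSMUSG00000073421, chr17:34476663-34488393), for the I-A beta chain, ranged in muscle from 27.7 CPM (median 36.1) to 50.9 under AL and from 17.3 (median 26.7) to 38.7 under IF. The ranges overlapped, with 4 IF mice below every AL mouse. H2-Ab1 fell by 0.53 on the log2 scale (SE 0.17, adjusted p 0.0382), with 6 of 8 IF mice below the AL median. The call was kept in 6 of 16 fits with a library left out (-0.61 to -0.45, adjusted p 0.0206 to 0.0794), and was lost without AL mouse 1, 3, 4, 5 or 7 or IF mouse 9, 11, 13, 15 or 16. It was also lost with a replicate block and with no filter. H2-Aa had medians of 32.5 and 23.9 CPM (-0.45, SE 0.19, adjusted p 0.0924) and H2-Eb1 (ENSMUSG00000060586), for the I-E beta chain, of 31.7 and 22.5 (-0.58, SE 0.23, adjusted p 0.0859), each lower under IF with overlap and not called. H2-Aa was called without AL mouse 2 (-0.53, adjusted p 0.0386) or without IF mouse 12 (-0.55, adjusted p 0.0450), and H2-Eb1 without IF mouse 12 (-0.71, adjusted p 0.0331).

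In liver of mice 1-16 the fold changes of the 3 class II genes tested were positive and none was called. H2-Ab1 ranged from 19.7 CPM (median 29) to 47.6 under AL and from 19.3 (median 35.5) to 174 under IF (log2 0.67, SE 0.41, adjusted p 0.203). H2-Aa ranged from 17.3 (median 25.2) to 39.5 and from 15.5 (median 27) to 126 (0.46, SE 0.39, adjusted p 0.354). Both highest values were those of IF mouse 16, and the groups overlapped, with 6 of 8 IF mice above the AL median for each gene. H2-Eb1 was at 0.33 (adjusted p 0.564), with 3 of 8 above. Without that mouse H2-Ab1 was at 0.12, H2-Aa at -0.08 and H2-Eb1 at -0.27, and none was called. Cortex had H2-Aa at medians of 2.14 CPM under AL and 1.62 under IF, with overlap and no call (-0.51, adjusted p 0.464; -0.40 with the omitted library).

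Of 5 accessory genes of class II tested in liver, 1 was called higher and 0 lower, beside 23.5 and 21.1 percent of all genes. H2-DMb1 (ENSMUSG00000079547), for the beta chain of DM, ranged from 2.54 CPM (median 3.89) to 5.63 under AL and from 3.48 (median 5.95) to 21.6 under IF, with overlap and 4 IF mice above the highest AL mouse. It rose by 0.81 on the log2 scale (SE 0.30, adjusted p 0.0328), with 7 of 8 IF mice above the AL median. Without IF mouse 16 it was at 0.37 (adjusted p 0.145), and without AL mouse 1, 2, 3, 5 or 8 or with a replicate block (adjusted p 0.0723) it also lost the call. H2-DMa had medians of 3.63 and 4.26 CPM in liver (0.49, adjusted p 0.226), 4.11 and 3.30 in muscle (-0.32, adjusted p 0.150) and 19.5 and 18.3 in cortex (-0.01), with overlap in each and no call. In liver without IF mouse 16 H2-DMa was at 0.02. H2-Oa and H2-Ob, for the DO dimer that modulates DM, were at 0.70 (adjusted p 0.312) and 0.15 in liver.

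H2-Ke6 (ENSMUSG00000073422), which encodes a dehydrogenase and is also named Hsd17b8, was not called in any tissue. Its medians under AL and IF were 1.36 and 1.2 CPM in liver and 1.08 and 0.966 in muscle, and the ranges overlapped (log2 0.04, adjusted p 0.948; -0.25, adjusted p 0.553).

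Marker lists of cell types are given beside these genes for liver and muscle. In bulk tissue, fewer cells of a type and less RNA per cell cannot be told apart. Over all genes tested, 23.5 percent were higher and 21.1 percent lower in liver. Macrophage markers in liver of mice 1-16 summed to 172 to 303 CPM (median 210.1) under AL and 243 to 783 (median 296) under IF, Clec4f being the most abundant and none at 0 in a whole group, with 4 of 11 higher and 0 lower. Dendritic cell markers summed to a median of 18.6 CPM (15.8 to 25.8) and 27.7 (21.3 to 47.2), led by Zbtb46 under AL and Clec9a under IF, with 2 of 8 higher. T cell markers had medians of 7.78 (4.97 to 10.7) and 8.66 (5.76 to 35.4), led by Cd4 under AL and Lck under IF, with 2 of 8 higher and 1 lower. B cell markers had medians of 49.1 (22 to 97.2) and 37.6 (19.2 to 74.5), led by Ighm, with 0 of 7 called. Endothelial markers, led by Stab2, summed to medians of 152 CPM (141 to 183) and 232 (195 to 404), with 5 of 9 higher. Erythrocyte markers, led by Hba-a1, summed to medians of 569 CPM (362 to 956) and 2070.4 (667 to 6879), with 3 of 5 higher. Microglia markers, led by Sall1, had medians of 25.5 (20.9 to 41.4) and 26.4 (12.9 to 36.8), with 0 of 4 called. Hepatocyte markers, led by Alb, summed to medians of 57566 (51396 to 79855) and 55877 (42839 to 66904), with 0 of 5 higher and 1 lower, and in none of these lists was a gene at 0 in all liver libraries of a diet. Their part in the result was not tested.

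In muscle of mice 1-16, where 11.5 percent of genes were higher and 11.6 percent lower, macrophage markers summed to 45.1 to 103 CPM (median 79.8) under AL and 39.4 to 97.5 (median 58.0) under IF, led by C1qa, with Clec4f at 0 in every IF library and 1 of 8 tested higher and 1 lower. B cell markers summed to 129 to 284 (median 196) and 113 to 304 (median 144), led by Ighm, with 0 of 5 called and no gene at 0 in a whole group. Dendritic cell markers, led by Zbtb46, had medians of 7.74 and 8.40, 0 of 4 called and no gene at 0 throughout. T cell markers, led by Cd3e, had medians of 4.19 (1.78 to 5.80) and 3.19 (1.48 to 4.61), with 1 of 3 lower. Microglia markers, led by Fcrls, had medians of 5.97 (3.6 to 9.03) and 3.66 (2.86 to 5.72), with 1 of 3 lower. Endothelial markers, led by Cdh5, had medians of 251 and 267, with 2 of 9 higher and 1 lower, and erythrocyte markers, led by Hbb-bs, of 346 and 437, with 0 of 5 called. In these last 4 lists no gene was at 0 in a whole group. Class II genes summed to 72.1 to 145 CPM (median 98.0) under AL and 51.3 to 116 (median 71.7) under IF. The part of these cells in the class II values was not tested.

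Liver of IF mouse 16 stood apart in class I and class II together. Its class Ia sum was 2787 CPM (1157 to 1571 in the other 7 IF livers), its class Ib sum 3289 (2419 to 3363) with H2-Q10 and 664 (248 to 358) without it, its class II sum 416 (48.0 to 126), its macrophage marker sum 783 (243 to 383), its T cell marker sum 35.4 (5.76 to 11.9) and the sum of the interferon-response list 1765 (544 to 751). In mice 25-40 the liver of AL mouse 28 had a class II sum of 233 CPM, a macrophage marker sum of 1203 and an interferon-response sum of 1512. The muscle of IF mouse 12 had a class Ia sum of 555 CPM. The cause of these values was not tested.

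Mice 25-40 had no member called between IF and AL. In liver edgeR called 0 of 26 members and 0 percent of 15938 genes higher and 0 percent lower, at unadjusted p under 0.05 it called 2 (5.77 percent), H2-DMb2 and H2-M2, and DESeq2 called 0 of 30 (0.0138 percent). In muscle edgeR called 0 of 22 (0.00653 percent of 15308 genes higher, 0 percent lower), 0 at unadjusted p under 0.05 (10.7 percent), and DESeq2 called 0 of 21 (0.598 percent). In cortex edgeR called 0 of 23 (0 percent of 18403 genes higher, 0.0109 percent lower), 2 at unadjusted p under 0.05 (11.2 percent), H2-T23 and H2-Ob, and DESeq2 called 0 of 21 (0.364 percent). Median log2 fold changes of the members were 0.10, -0.16 and 0.00, beside -0.01, -0.02 and 0.00 over all genes tested.

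By gene, H2-K1 in liver of mice 25-40 had medians of 1694 CPM (1543 to 2095) under AL and 1858 (1322 to 2501) under IF (log2 0.13, adjusted p 0.913). H2-Q10 had medians of 2206 (1862 to 2520.0) and 2293 (2106 to 2787) in liver (0.13, adjusted p 0.882) and of 2.96 (0.947 to 8.03) and 2.27 (0.163 to 3.49) in muscle (-0.58, SE 0.52, adjusted p 0.719). H2-Aa in liver had medians of 40.2 (26.9 to 84.9) and 52.3 (25.3 to 101), and was not called (0.41, adjusted p 0.869). The groups overlapped for each of these genes, and none stood clearly higher under either diet. H2-Ab1 in muscle was at -0.04 (adjusted p 0.980). H2-T23 in cortex had all 8 IF mice below the AL median of 39.3 CPM (-0.21, unadjusted p 0.0244, adjusted p 0.404).

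Whether the diet effect differed between the sets was tested by interaction. In muscle 1 of 22 members was called, H2-Q10, whose effect was smaller in mice 25-40 (log2 difference -4.76, SE 0.97, adjusted p 0.00133), where 14.2 percent of 16346 genes were called. In liver 0 of 27 members were called, where 23.7 percent of 17658 genes were, and 4 had unadjusted p under 0.05 (34.6 percent of genes): H2-K1 (0.48), H2-Q1 (1.15), H2-Q10 (0.36) and H2-T10 (0.64). Without liver IF mouse 16, H2-K1, H2-Q1, H2-Q7 and H2-T10 were called. In cortex 0 of 23 were called (2.03 percent of 19547 genes), and 5 had unadjusted p under 0.05 (15.4 percent), namely H2-D1, H2-T23, H2-T22, H2-M3 and H2-Bl. The H2-Q10 result was given by 16 muscle libraries per set, and set cannot be told apart from sex or batch.

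Liver and muscle were compared for their diet effect within mice, matched by library number. In mice 1-16, 5 of 27 members differed (26.7 percent of 24688 genes). The liver effect was lower than the muscle effect for H2-Q10 (log2 difference -4.25, SE 0.65, adjusted p 5.79e-06), H2-K1 (-0.70, SE 0.16, adjusted p 0.00103), H2-T10 (-0.99, SE 0.30, adjusted p 0.0107) and H2-Q4 (-0.48, SE 0.17, adjusted p 0.0270). For H2-DMb1 it was higher by 1.09 (SE 0.36, adjusted p 0.0227). Without liver IF mouse 16 H2-DMb1 lost the call, and H2-Q4 did without muscle IF mouse 12 or with the omitted cortex library. Without the mouse block H2-Q4 and H2-T10 (-0.86, adjusted p 0.0598) lost their calls and H2-Ab1 was called. In mice 25-40, 0 of 28 members differed with edgeR (0.00428 percent of 23371 genes), and 0 at unadjusted p under 0.05 (7.63 percent).

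Fed mice of the sets were also compared. In liver 5 of 27 members were higher in mice 25-40 and 1 lower (10.4 and 9.59 percent of 17658 genes), with a median log2 difference of 0.50 over the members and 0.04 over all genes. The higher ones were H2-T23 (0.50, SE 0.16, adjusted p 0.0235), H2-T10 (0.62, SE 0.19, adjusted p 0.0192), H2-T22 (0.68, SE 0.17, adjusted p 0.00345), H2-Q4 (0.69, SE 0.19, adjusted p 0.00704) and H2-DMb1 (0.71, SE 0.26, adjusted p 0.0453), and the lower H2-Q10 (-0.44, SE 0.11, adjusted p 0.00303). Without liver AL mouse 28, H2-DMb1 (0.56, adjusted p 0.138) and H2-T23 lost their calls, and H2-DMb1 did also with RLE size factors and with no filter. Leaving out liver IF mouse 16, which enters that fit but not the fed means, added H2-D1, H2-Eb2 and H2-Q5. In muscle 4 of 22 were higher and 1 lower (19.2 and 19.2 percent of 16346 genes; medians 0.30 and 0.02). These were H2-M3 (0.42, adjusted p 0.0411), H2-Q6 (1.31, adjusted p 0.0145), H2-Ob (2.03, adjusted p 0.0325), H2-M2 and, lower, H2-Ke6 (-0.80, adjusted p 0.0264). H2-M2 had at most 0.0685 CPM in mice 1-16 and 0.607 in mice 25-40, so no fold is given. It was tested because of its reads in mice 25-40, so its direction was no separate test, although the count of 4 includes it. With no filter H2-M3 and H2-Ob lost their calls and H2-Q2 was called.

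Marker lists in the same fed tissues are given for mice 1-16 and then mice 25-40, and the shares of all genes called are those given with the members. In liver, macrophage markers had medians of 210.1 CPM (172 to 303) and 374 (321 to 1203), led by Clec4f, with 7 of 11 higher, and B cell markers of 49.1 (22 to 97.2) and 86.5 (52.8 to 98.7), led by Ighm, with 2 of 7 higher. Microglia markers had medians of 25.5 and 58.6, led by Sall1, with 1 of 4 higher, T cell markers of 7.78 and 10.8, led by Cd4 and then Lck, with 1 of 8 higher and 1 lower, and dendritic cell markers of 18.6 and 22.8, led by Zbtb46, with 0 of 8 called. In muscle, T cell markers had medians of 4.19 (1.78 to 5.80) and 8.28 (2.38 to 32.4), led by Cd3e, with 5 of 8 higher, and macrophage markers of 79.8 (45.1 to 103) and 46.2 (26.5 to 67.5), led by C1qa, with 1 of 9 higher and 4 lower and Clec4f at 0 in mice 25-40. B cell markers had medians of 196 and 119 there, led by Ighm, with 4 of 7 higher and 1 lower. In cortex, B cell markers had medians of 44.9 (35.8 to 59.3) and 78.0 (50.1 to 130.5), led by Ighm, with 1 of 5 higher, and T cell markers of 11.2 (3.88 to 31.3) and 4.6 (2.54 to 11.9), led by Cd4, with 0 of 3 called. The interferon-response sum had medians of 868 (804 to 1184) and 1154 (925 to 1512) in liver, with 10 of 23 higher, of 104 (96.1 to 174) and 144 (126 to 169) in muscle, with 6 of 23 higher, and of 128 (108 to 148) and 147 (121 to 211) in cortex, with 2 of 23 higher. Cortex macrophage markers had medians of 325 and 355, led by Csf1r and then C1qa, with 0 of 7 called and Clec4f and Vsig4 at 0 in mice 1-16. No other gene of these lists was at 0 in a whole group, and their part in the result was not tested.

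Fed cortex had 6 of 23 members higher and 0 lower in mice 25-40 (5.54 and 7.11 percent of 19547 genes; medians 0.29 and 0.01). H2-D1 had a median of 61.2 CPM (45.7 to 68.5) in mice 1-16 and 86.7 (69.1 to 96.1) in mice 25-40, with no overlap, and was higher by 0.51 (SE 0.08, adjusted p 4.70e-05). H2-K1 had medians of 47.0 (32.2 to 53.7) and 58.4 (48.1 to 72.0), with overlap (0.38, SE 0.10, adjusted p 0.0125). H2-M3 (0.71, adjusted p 0.00166), H2-Bl (1.01, adjusted p 0.00990), H2-T23 (0.31, adjusted p 0.0224) and H2-Q4 (0.52, adjusted p 0.0440) were the others. With the omitted cortex library 3 were called: H2-D1, H2-M3 and H2-Bl. Sex, batch and any difference in age or strain cannot be told apart in these set differences.

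Of the partners of class I heavy chains in liver of mice 1-16, B2m, Calr and Pdia3 fell and Canx rose. B2m ranged from 2246 CPM (median 3090.4) to 3304 under AL and from 1162 (median 1232) to 2022 under IF, with no overlap. It fell by 1.23 on the log2 scale (SE 0.13, adjusted p 2.97e-08), and by 1.34 without IF mouse 16. Calr, a chaperone of class I loading, went from a median of 532 CPM (459 to 643) to 195 (148 to 254) and fell by 1.5 (SE 0.13, adjusted p 1.65e-09). Pdia3 of the loading complex went from 375 (269 to 536) to 131 (101 to 167) and fell by 1.53 (SE 0.14, adjusted p 9.48e-09). Canx, another chaperone of heavy chains, went from 69.6 (54.0 to 112) to 144 (115 to 161) and rose by 0.78 (adjusted p 3.35e-05), also without overlap. In mice 25-40 B2m had medians of 1969 and 1782 CPM (-0.14, adjusted p 0.883), and the diet effect on B2m differed between the sets (1.12, adjusted p 9.76e-06).

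Over the class I loading list 14 genes were tested in liver of mice 1-16, 3 higher and 6 lower, with a median log2 fold change of -0.24 (0.06 over all genes tested, of which 23.5 percent were higher and 21.1 percent lower). The same shares stand beside the other list counts here. Tap1, of the peptide transporter, and Psmb8, of the immunoproteasome, were not called (-0.39, adjusted p 0.391; 0.22, adjusted p 0.494). Without IF mouse 16 Tap1 was called at -0.90 (adjusted p 9.30e-05), as was the transactivator gene Nlrc5 (-0.60, adjusted p 0.0116), Psmb8 stood at -0.14, and Gbp2 lost its call (0.88, adjusted p 0.0534). Of 10 regulators 1 was higher and 7 lower (median -0.65), the largest being Rfxank (-1.005, adjusted p 6.98e-07), Irf2 (-0.98, adjusted p 2.91e-07) and Rfxap (0.94, adjusted p 9.88e-05). With all mice Nlrc5 (-0.36, adjusted p 0.249) and Ciita (0.52, adjusted p 0.264; 0.02 without mouse 16) were not called. Of 23 interferon-response genes 1 was higher and 7 lower (median -0.16), with Isg15 at -1.77 (adjusted p 0.000745), Rtp4 at -1.26 (adjusted p 1.97e-06) and Gbp2 at 1.82 (adjusted p 0.0122). Class II partners gave 1 higher, the protease gene Lgmn (0.68, adjusted p 0.00614), and 1 lower, the reductase gene Ifi30 (-0.53, adjusted p 0.0344), of 4. Ifi30 lost its call without AL mouse 4, 5 or 7 or IF mouse 10, 12, 14 or 15 (adjusted p up to 0.0689), and was at -0.80 (adjusted p 1.60e-05) without IF mouse 16. The invariant chain gene Cd74 had medians of 60.7 CPM (39.7 to 89.1) and 85.0 (36.1 to 430.2) and was not called (0.91, adjusted p 0.110; 0.29 without mouse 16).

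Muscle of mice 1-16 had Cd74 lower under IF along with H2-Ab1. Cd74 went from a median of 77.9 CPM (59.0 to 113) to 58.1 (36.4 to 81.7), with overlap, and fell by 0.58 (SE 0.16, adjusted p 0.0167), with 7 of 8 IF mice below the AL median. Ctss, a protease of the class II pathway, fell by 0.56 (adjusted p 0.0486), with 6 of 8 IF mice below the AL median, and lost the call without AL mouse 1, 3, 4, 5 or 6 or IF mouse 9, 11, 13, 14, 15 or 16 (adjusted p up to 0.111). B2m had a median of 105 CPM under both diets and was not called (0.09, and -0.09 without IF mouse 12). Over all genes tested, 11.5 percent were higher and 11.6 percent lower in muscle, and 3.79 and 3.43 percent in cortex. Calr was the only 1 of 14 loading genes called in muscle (-0.21, adjusted p 0.00484), and Isg15 (-0.99, adjusted p 0.00203) and Rtp4 (-0.59, adjusted p 0.0324) the only 2 of 23 interferon-response genes. Rtp4 lost its call in muscle without AL mouse 3, 4, 5 or 7 or IF mouse 9, 10, 11, 14 or 15 (adjusted p up to 0.0719). In cortex Pdia3 (-0.28, adjusted p 0.0159), Calr (-0.24, adjusted p 0.0170) and Canx (-0.18, adjusted p 0.0341) were called, each with 8 of 8 IF mice below the AL median, and Canx lost its call there without AL mouse 2, 3 or 5 or IF mouse 10, 11, 13, 14 or 15 (adjusted p up to 0.0738). With the omitted cortex library Pdia3 (-0.22, adjusted p 0.134), Calr (-0.19, adjusted p 0.139) and Canx (-0.16, adjusted p 0.113) all lost their calls. No gene of these lists was called in mice 25-40. In cortex of mice 1-16, B cell markers had medians of 44.9 CPM (35.8 to 59.3) under AL and 70.7 (55.4 to 78.9) under IF. T cell markers had medians of 11.2 and 24.1, endothelial markers of 201 and 166, and microglia markers of 148 and 133. Medians were 325 and 307 for macrophage and 34.4 and 32.2 for dendritic cell markers. Their part in the cortex values was not tested.

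Sequence shared between members can move reads from gene to gene. In GENCODE transcripts, an annotation other than that of the count table, H2-Q5 shared 17 percent of its 100-base stretches with other genes, H2-DMb1 11.3 percent (with H2-DMb2), H2-Q7 9.85, H2-Q10 9.50, H2-Q4 8.13, H2-T10 7.23 (with H2-T22), H2-D1 2.53 and H2-K1 2.03, and H2-Ke6 61.0 percent, with Gm20427. H2-Aa, H2-Ab1 and H2-Eb1 shared none. In that annotation H2-T9, which is not in the count table, overlaps H2-T10 on the same strand over 5590 bases, and H2-Aa and H2-Eb1 overlap on opposite strands over 2563 bases, although not at the coordinates of the count table. There H2-DMa overlaps the protein-coding gene Brd2 on the opposite strand over 3231 bases. It also overlaps the non-coding gene Gm50336 on the same strand over 9074 bases. The strand setting of the counting was not given, and whether reads of these genes entered the H2-DMa counts was not tested. How the counting treated reads with several places was not stated.

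Promoters were read as the 250 bases right before the gene start of the RefSeq promoter table (GRCm38.p6) for 31 of the 38 members, and placed on GRCm39 where an exact match was single. The windows of H2-Q6 and H2-Q7 matched at 2 places each and were not placed, but are counted below. The letters CCAAT, on either strand, were in 27 of 31 (34.5 percent of 27025 promoters), TGACG in 12 (17.9 percent), GAAANNGAA in 2 (7.16 percent) and GGGATTCC in 4 (0.873 percent). A match describes letters and does not show a bound site, and no match says only that these letters are not in this window. In the lines below, each 5' to 3' on the strand of its gene, capitals mark the matches on either strand. H2-K1, chr17:34219322-34219571, minus strand, has CCAAT at 1 place, TGACG at 1 and GGGATTCC at 1.
H2-K1: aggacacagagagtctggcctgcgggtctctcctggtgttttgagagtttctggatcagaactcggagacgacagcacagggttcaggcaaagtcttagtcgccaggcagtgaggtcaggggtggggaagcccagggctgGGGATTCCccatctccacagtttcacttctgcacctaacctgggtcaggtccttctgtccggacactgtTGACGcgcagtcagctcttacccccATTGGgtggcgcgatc
H2-Q4, chr17:35598343-35598592, plus strand, has CCAAT at 2 places and TGACG at 1.
H2-Q4: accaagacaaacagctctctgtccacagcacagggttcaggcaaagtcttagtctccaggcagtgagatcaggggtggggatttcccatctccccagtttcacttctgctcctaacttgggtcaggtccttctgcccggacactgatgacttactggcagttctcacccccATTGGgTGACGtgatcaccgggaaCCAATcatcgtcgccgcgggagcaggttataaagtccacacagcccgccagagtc
H2-Q10, chr17:35780736-35780985, plus strand, has none of the 4 motifs.
H2-Q10: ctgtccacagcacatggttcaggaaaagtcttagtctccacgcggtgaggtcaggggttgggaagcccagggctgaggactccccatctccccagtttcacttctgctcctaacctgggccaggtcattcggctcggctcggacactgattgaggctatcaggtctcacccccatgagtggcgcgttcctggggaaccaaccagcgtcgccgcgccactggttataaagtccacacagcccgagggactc
H2-Aa, chr17:34506798-34507047, minus strand, has CCAAT at 1 place and TGACG at 2, overlapping on opposite strands.
H2-Aa: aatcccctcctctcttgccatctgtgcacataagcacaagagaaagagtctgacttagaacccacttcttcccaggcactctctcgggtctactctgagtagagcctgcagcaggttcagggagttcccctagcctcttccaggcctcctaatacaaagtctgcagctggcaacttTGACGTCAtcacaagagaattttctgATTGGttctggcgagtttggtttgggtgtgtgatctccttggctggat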

How the data were processed

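Poly-A RNA from liver, skeletal muscle and cerebral cortex of 32 mice was sequenced by the authors as 96 libraries. The deposited gene table holds raw read counts (unit: count) that the authors made per their methods with HISAT2 on the GRCm39 (mm39) genome and featureCounts. The strand setting and the handling of reads with several places were not given. Library totals ran from 26097314 to 49838004 counts, so 1 read equalled 0.0383 to 0.0201 CPM.

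Values are CPM, counts scaled to the library total, and CPM per kb was used only between genes. Groups were set by tissue, diet and mouse set, with 8 libraries each, and the cortex library of AL mouse 1 was left out because its sex genes went against its label, leaving 7. Genes were filtered with filterByExpr (minimum count 10), normalized by TMM and tested with edgeR quasi-likelihood fits (glmQLFit, robust), with Benjamini-Hochberg adjustment over all genes tested, and called at adjusted p under 0.05. IF was compared with AL in each tissue and set, 6 comparisons of 20. Differences of the diet effect were tested as interactions, and contrasts between tissues used mouse, taken from the library number, as a block. Alternatives were unadjusted p, RLE size factors, DESeq2, no filter, a replicate block, mice 2 and 10 left out, the omitted library kept, and libraries left out in turn. The steps were tested on simulated data.

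Tools were R 4.3.3, edgeR 4.0.16, limma 3.58.1, DESeq2 1.42.0, Python 3.11.15, pandas 2.3.3, numpy 2.4.6 and matplotlib 3.10.9.

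Members and gene lists were chosen with earlier results of these data known. Named by rule were H2-K1, H2-D1, H2-Q4, H2-Q7, H2-Q10, H2-T22, H2-T23, H2-M3, H2-Aa, H2-Ab1, H2-Eb1, H2-DMa, H2-DMb1, H2-Oa, H2-Ob and H2-Ke6, every other member called between IF and AL with a group mean of 1 CPM or more, B2m, Cd74, Ciita, Nlrc5, Tap1 and Psmb8, and per pathway list and comparison of IF with AL up to 3 called genes with the largest absolute log2 fold change and a mean of 1 CPM or more. Other genes named were chosen after their values were seen. Promoter windows came from a RefSeq table of GRCm38.p6 and were placed on GRCm39 by exact single match, except those of H2-Q6 and H2-Q7, which matched at 2 places each.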

Additional observations from a re-analysis of the deposited data

Results flagged for a closer look

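Each group of libraries was searched for values far from the others of that group, over 20 genes and 194 groups. Such a value was found in 34 groups. The cut-off used flags about 1 in 20 groups of independent, normally spread values. Of the 34, 15 came from liver of IF mouse 16, so the groups were not independent and the count is no test against that rate.

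Liver of IF mouse 16 lay above the other IF livers of mice 1-16 in 15 genes: H2-K1 1949 CPM, H2-D1 837, H2-Q2 2.96, H2-Q4 168, H2-Q7 27.1, H2-T10 14.1, H2-T22 136, H2-T23 257, H2-Aa 126, H2-Ab1 174, H2-Eb1 116, H2-DMa 17.3, H2-DMb1 21.6, B2m 2022 and Cd74 430.2. The cortex library of the same mouse number had a high H2-D1, 79.5 CPM. Among the AL livers of mice 25-40, mouse 28 was high in H2-M3 (9.72 CPM), H2-Aa (84.9), H2-Eb1 (74.3), H2-DMa (13.1), H2-DMb1 (12.7) and Cd74 (211).

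In muscle, IF mouse 12 was far above its group in H2-Q10 (83.5 CPM) and B2m (221), AL mouse 2 in H2-Q10 (4.88) and AL mouse 3 in H2-DMa (6.40). Muscle of IF mouse 39 was high in H2-Aa (57.7), H2-Ab1 (58.8), H2-Ob (5.86) and Cd74 (157). In cortex, IF mouse 11 was high in H2-Ab1 (3.95) and H2-DMb1 (3.37). Its hepatocyte marker sum of 3367 CPM, nearly all Ttr, was also far above 6 of the other 7 (3.99 to 33.3). AL mouse 30 was high in H2-DMa (23.6), and IF mouse 38 was low in H2-K1 (47.1).

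Diet effects that differed between groups by interaction test are listed next. Between mice 25-40 and mice 1-16 these were H2-Q10 in muscle (log2 -4.76) and B2m in liver (1.12). Between liver and muscle of mice 1-16 they were H2-Q10 (-4.25), H2-K1 (-0.70), H2-Q4 (-0.48), H2-T10 (-0.99), H2-DMb1 (1.09), B2m (-1.33) and Cd74 (1.16).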

How the results depend on the processing

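No result changed sign among called values under any alternative. In liver of mice 1-16, 3 members were called between IF and AL, 4 at unadjusted p and 4 with DESeq2 (H2-Q4 added in each), 3 with RLE size factors, 2 with no filter (H2-DMb1 lost) and 2 without mice 2 and 10 (H2-DMb1 and H2-T10 lost, H2-Q10 added). With a replicate block 4 were called, of which 1 was in both, H2-T10 (H2-DMb1 and H2-Q2 lost, H2-K1, H2-Q1 and H2-Q4 added). With each library left out in turn the number ran from 1 to 6.

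In muscle of mice 1-16, 2 members were called, 5 at unadjusted p (H2-Aa, H2-Eb1 and H2-K1 added), 1 with no filter and 1 with a replicate block (H2-Ab1 lost in each), 4 without mice 2 and 10 (H2-Aa and H2-Eb1 added), and 1 to 5 with each library left out. At unadjusted p, 1 member was called in cortex of mice 1-16 and 2 each in liver and cortex of mice 25-40, where the adjusted p gave 0.

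The difference of the diet effect between the sets in liver gave 0 members, 4 at unadjusted p, 1 with no filter (H2-T3) and 4 without liver IF mouse 16. In cortex it gave 0, and 5 at unadjusted p. Fed mice of the sets gave 6 members in liver, 12 at unadjusted p, 5 with RLE size factors and 5 with no filter (H2-DMb1 lost in each), 4 without liver AL mouse 28 (H2-DMb1 and H2-T23 lost) and 9 without liver IF mouse 16, and 5 in muscle, 8 at unadjusted p and 4 with no filter (H2-M3 and H2-Ob lost, H2-Q2 added). Fed cortex gave 6, 3 with the omitted library kept and 5 with no filter. Liver against muscle gave 17 in mice 1-16, and 17 to 19 with liver IF mouse 16 or muscle IF mouse 12 left out. The liver and muscle difference of the diet effect gave 5, 4 without liver IF mouse 16 (H2-DMb1 lost), and 4 without muscle IF mouse 12 or with the omitted cortex library kept (H2-Q4 lost). Without the mouse block it also gave 4, of which 3 were in both (H2-Q4 and H2-T10 lost, H2-Ab1 added).

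The replicate block takes numbers as pairs, but correlations between libraries of the same number ran from -0.403 to 0.495. Leaving out each library, leaving out liver IF mouse 16, liver AL mouse 28 and muscle IF mouse 12 in the other fits, the omitted library in tissue fits, and unadjusted p for the interactions, sets and tissues were chosen after the data were seen. The cause of these changes was not tested.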
